A study of Mus musculus with 8 samples.

Results

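Mitosis and spindle genes were examined in bone marrow-derived macrophages at rest and after classical or alternative activation. The list held 45 genes of mitosis, chosen by symbol and sorted by role into cyclins and their partners, kinases, kinetochore and checkpoint proteins, the chromosomal passenger complex, kinesins, other proteins of the spindle, the chromosomes and cytokinesis, and mitotic exit. A probe set (the group of short probes that reads the transcripts of a gene) named by a single symbol was found for 44 of the 45, out of 18193 genes named on the array. Ccnb1, which encodes a B-type cyclin, was not analysed here. Where several probe sets named a gene, the one with the highest mean log2 intensity over the 8 arrays was used.

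The macrophages came from the bone marrow of wild-type mice on the C57BL/6J background and had been grown in medium with L929 cell supernatant, a source of macrophage colony stimulating factor. In every group the cells were replated on day 7 without that supernatant, so the growth factor had been withdrawn from the resting controls as well. M0 macrophages (3 arrays) then received medium alone, M1 macrophages (3 arrays) received LPS, a bacterial cell wall component, at 100 ng/ml together with the interferon IFN-γ at 20 ng/ml, and M2 macrophages (2 arrays) received the cytokine IL-4 at 20 ng/ml, and RNA was taken after 24 hours. The labels call the arrays within a group biological replicates, and the deposited design text says that replicates come from different mice. The methods speak of in vitro replicates too, so n counts arrays and the p-values measure the spread between arrays.

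To divide, a cell activates the kinase Cdk1 with cyclins of the A and B types, condenses its chromosomes, attaches them through kinetochores to the microtubules of the spindle, and is held by the spindle checkpoint until every chromosome is attached. The anaphase promoting complex, a ubiquitin ligase, then marks securin and the mitotic cyclins for destruction, separase cuts the cohesin that joins sister chromatids, and cytokinesis parts the daughter cells. Transcripts of these genes accumulate late in the cell cycle and are low in cells that have left it, and macrophage colony stimulating factor is the factor that drives bone marrow macrophages to proliferate in culture.

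Expression of nearly the whole list fell in M1 macrophages. In M1 compared with M0 macrophages, 41 of the 44 genes were called lower at an adjusted p under 0.05 and 37 of them by at least 2-fold, where 11.5% of all named genes were called lower and 3.2% were lower by at least 2-fold. A pair of genes, Ube2s and Pttg1, was called higher (background 13.7%), neither by 2-fold (background 2.8%), and Hmmr passed in neither direction. The median difference over the 44 genes was -1.67 on the log2 scale, a 3.18-fold lower level, while the median over all named genes was 0.02. All M1 arrays lay below all M0 arrays in 41 genes, as did 18.5% of the named genes. The levels came from pools of cells, in which fewer dividing cells and less RNA per cell cannot be told apart.

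**Figure D1:**
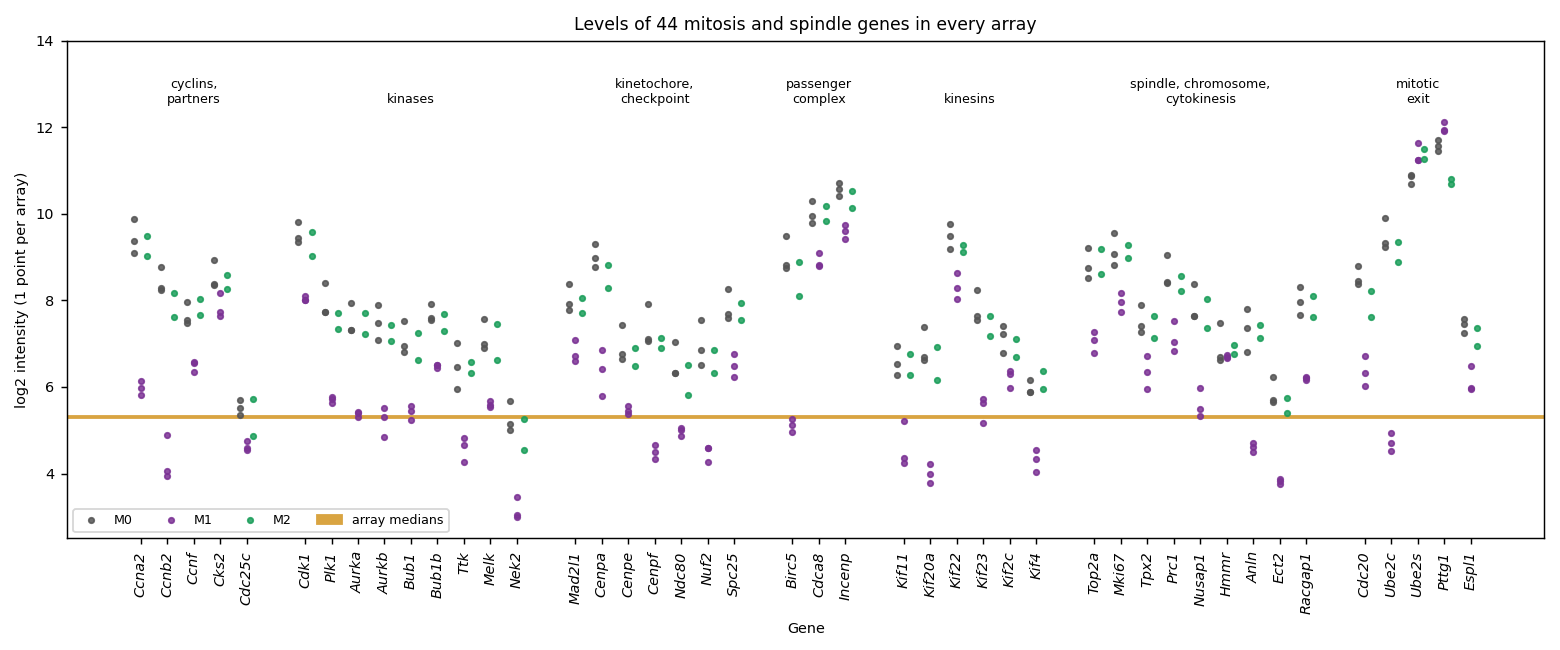
log2 intensity (vertical axis) of the chosen probe set of each of the 44 genes (horizontal axis, grouped by role), with 1 point per array for M0 (grey), M1 (purple) and M2 (green), and a band for the range of the 8 array medians. M1 points lie below the M0 and M2 points in nearly every gene, and M2 points overlap M0 points in most; Ube2s and Pttg1 at the right stand apart, and Hmmr shows no gap. Levels of different genes come from different probes and are not comparable with each other.

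Signal and spread of the arrays bear on these differences. The median intensity of an array was 38.9 to 40.4 units, and the mean M1 level of 15 of the 44 genes was below the lowest of these medians, as was the M0 level of none, so that several falls end in the dim range of the array, where RMA intensities include background signal. M0 replicate 2 gave the highest M0 value in 43 of the 44 genes (31.6% of all named genes), and M2 replicate 1 was above M2 replicate 2 in all 44 (52% of all named genes). The median deviation of the 44 genes from their M0 means was -0.21, 0.39 and -0.17 in the M0 arrays, -1.66, -1.71 and -1.63 in the M1 arrays and 0.02 and -0.44 in the M2 arrays on the log2 scale, while the same median over all named genes stayed between -0.01 and 0.05. Without M0 replicate 2, 40 genes were called lower in M1 and the median difference was -1.52. What set M0 replicate 2 and M2 replicate 1 apart was not tested.

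**Figure D2:**
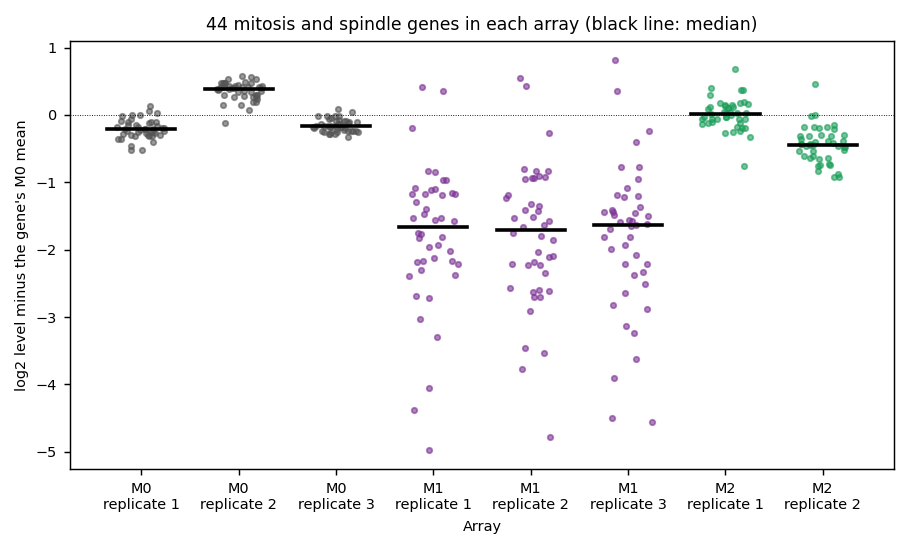
log2 level of each of the 44 genes minus that gene's M0 mean (vertical axis) in each of the 8 arrays (horizontal axis), with the median of each array as a black line. The 3 M1 medians lie between -1.71 and -1.63, the M0 medians between -0.21 and 0.39, and the M2 medians at 0.02 and -0.44.

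Many promoters of mitotic genes carry CCAAT boxes, bound by the NF-Y factor, and a cell cycle homology region (CHR), bound by complexes that silence these genes in resting cells and activate them late in the cycle. Reference promoters (RefSeq, build GRCm38.p6, from 250 bases before to 50 after the start of transcription) were available for 38 of the 44 genes. Searched on both strands, TTTGAA, the letters of the CHR, was found in 27 of the 38 promoters (71.1%) against 18.5% of the 17492 promoters of protein-coding genes, and CCAAT in 28 (73.7%) against 42.3%. Both motifs stood in 24 of the 38 (63.2%) against 7.4%. Among the 35 genes lower in M1 with a promoter, 26 held the CHR letters and 27 held CCAAT. The windows of Pttg1 and Ube2s, the genes called higher, held neither, but neither did those of Birc5, Mad2l1, Melk, Nuf2 and Nusap1, which fell, and the window of Hmmr held 1 CHR and 5 CCAAT boxes. A match of letters is a description of the promoter and not evidence of a bound factor. The 150 bases before the start are shown for 4 genes that fell and for the pair that rose, 5′ to 3′ on the strand of the gene, with both motifs in capitals on whichever strand they lie (ATTGG is the CCAAT box read from the other strand).
Ccnb2 (chr9:70421555-70421704, minus strand): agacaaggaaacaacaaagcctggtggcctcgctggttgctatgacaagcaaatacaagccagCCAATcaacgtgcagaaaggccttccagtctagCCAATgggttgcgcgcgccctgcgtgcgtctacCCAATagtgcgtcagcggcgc
Ube2c (chr2:164769779-164769928, plus strand): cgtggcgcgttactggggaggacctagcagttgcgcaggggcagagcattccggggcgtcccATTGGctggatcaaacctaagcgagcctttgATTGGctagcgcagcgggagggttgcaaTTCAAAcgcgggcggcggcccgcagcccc
Cdc20 (chr4:118437344-118437493, minus strand): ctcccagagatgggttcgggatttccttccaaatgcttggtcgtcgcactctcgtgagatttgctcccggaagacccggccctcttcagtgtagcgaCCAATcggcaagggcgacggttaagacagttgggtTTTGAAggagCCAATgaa
Top2a (chr11:99024190-99024339, minus strand): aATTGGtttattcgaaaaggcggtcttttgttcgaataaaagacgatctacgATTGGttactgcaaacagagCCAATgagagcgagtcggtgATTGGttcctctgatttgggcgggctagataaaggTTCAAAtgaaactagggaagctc
Pttg1 (chr11:43425982-43426131, minus strand): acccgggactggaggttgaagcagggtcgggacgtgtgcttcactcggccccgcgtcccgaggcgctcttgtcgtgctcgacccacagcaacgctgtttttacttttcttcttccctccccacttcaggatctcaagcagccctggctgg
Ube2s (chr7:4812341-4812490, minus strand): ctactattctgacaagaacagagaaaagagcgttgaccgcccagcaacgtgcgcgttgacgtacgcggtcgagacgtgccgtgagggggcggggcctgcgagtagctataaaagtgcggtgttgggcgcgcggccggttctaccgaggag
In Ube2c, Cdc20 and Top2a the first base of the nearest CHR lay 29, 18 and 23 bases before the start, with at least 1 CCAAT box further upstream, whereas Ccnb2 held 3 CCAAT boxes at 87, 54 and 21 bases before the start and its CHR letters outside the run shown.

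Cyclins and the partners of Cdk1 were called lower in M1 in 5 of 5 measured genes (background 11.5%), with a median log2 difference of -1.17. Ccnb2, a B-type cyclin that activates Cdk1, had an intensity of 313, 438 and 301 units in the M0 arrays, 16.6, 29.8 and 15.3 in the M1 arrays and 287 and 195 in the M2 arrays. Its M1 level was 17.6-fold lower than in M0 (log2 difference -4.14 ± 0.24 SE, adjusted p = 1.7e-07), and the M1 arrays were far below every other array and below the array medians. Ccna2, the A-type cyclin that acts from S phase into mitosis, was at 549, 944 and 661 units in M0, 70.9, 63.5 and 56.7 in M1 and 721 and 521 in M2, a log2 difference of -3.46 ± 0.19 in M1 (adjusted p = 9.6e-08). Falls of the other 3 were smaller. Ccnf, a cyclin that serves as the substrate receptor of a ubiquitin ligase, read 187, 248 and 178 units in M0, 93.8, 81.0 and 95.0 in M1 and 262 and 202 in M2 and was 2.25-fold lower in M1 (adjusted p = 8.8e-05). Cks2, a small protein that binds Cdk1, changed least of the group, by -0.72 (adjusted p = 0.011), and was no longer called without M0 replicate 2. Cdc25c, the phosphatase that removes inhibitory phosphate from Cdk1, fell by 0.89 on the log2 scale (adjusted p = 0.0034).

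All 9 kinases of the list were called lower in M1 macrophages (background 11.5%), with differences of -2.26 to -1.20 and a median of -1.90. Cdk1, the kinase that starts mitosis, was at 656, 898 and 701 units in M0, 258, 258 and 273 in M1 and 770 and 520 in M2, so that M1 was 2.83-fold lower (-1.50 ± 0.15, adjusted p = 1.8e-05) and its 3 arrays nearly alike. For Plk1, a kinase of mitotic entry, the spindle poles and cytokinesis, the values were 213, 336 and 212 units in M0, 54.7, 53.1 and 49.3 in M1 and 211 and 162 in M2. The fall in M1 was 4.73-fold (-2.24 ± 0.17, adjusted p = 1.6e-06). Aurkb, the kinase of the passenger complex, read 136, 239 and 178 units in M0, 46.1, 39.7 and 28.6 in M1 and 172 and 133 in M2, and M1 was 4.80-fold lower (-2.26 ± 0.21, adjusted p = 8.1e-06). Both of its probe sets are of the types that may match transcripts of other genes, and both were called lower. Aurka, the related kinase of the spindle poles, fell to a like extent (-2.15). Nek2, which helps to separate centrosomes, differed by -2.11, but in a dim range, with means of 39.7 units in M0 and 9.09 in M1. The other probe sets of Nek2 differed by -1.10, 0.15 and -0.10, and only the first of these was called.

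Kinases of the spindle checkpoint moved with them. Bub1b, which as BubR1 restrains the anaphase promoting complex, was at 186, 242 and 192 units in M0, 91.2, 87.2 and 90.4 in M1 and 206 and 156 in M2. This was a 2.29-fold fall (-1.20 ± 0.13, adjusted p = 3.3e-05), the smallest among the chosen probe sets of the kinases. Another probe set of Bub1b was called lower with a larger difference (-1.62), and a dimmer probe set of it was not called (-0.22). Differences for Bub1 and for Ttk (Mps1), which recruit checkpoint proteins to kinetochores, were -1.68 and -1.90, and the difference for Melk was -1.56. In each of the 9 kinases every M1 array was below every M0 and every M2 array. Over all named genes, the M1 arrays lay below all M0 arrays in 18.5% and below both M2 arrays in 23.3%.

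Genes of the kinetochore, the centromere and the checkpoint were called lower in 7 of 7 cases (background 11.5%), by a median of -1.59 and at most -2.87. Cenpa, the histone variant that marks the centromere, read 438, 636 and 502 units in M0, 115, 85.4 and 55.0 in M1 and 452 and 313 in M2. It was 6.38-fold lower in M1 (-2.67 ± 0.24, adjusted p = 5.8e-06) and its M1 arrays, though spread, did not overlap the M0 or M2 arrays. Ndc80, whose complex binds the end of the microtubule, was at 80.1, 132 and 80.7 units in M0, 32.1, 33.1 and 29.4 in M1 and 90.7 and 56.4 in M2, a 3.01-fold fall (-1.59 ± 0.20, adjusted p = 0.00011). Its partners in the complex, Nuf2 and Spc25, fell by 2.48 and 1.35 on the log2 scale. Cenpf, a large protein of the outer kinetochore, gave the largest fall of the group (-2.87), followed by Cenpa and Nuf2. The kinetochore motor Cenpe differed by -1.49 and Mad2l1, the checkpoint protein Mad2, by -1.22.

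The chromosomal passenger complex corrects faulty attachments and then moves to the midzone of the spindle. Its 3 measured non-kinase members were all called lower (background 11.5%), but to unequal extents. Birc5 (survivin) had 454, 718 and 427 units in M0, 31.3, 38.1 and 34.7 in M1 and 475 and 275 in M2. The M1 level was 15.0-fold lower (-3.90 ± 0.21, adjusted p = 1.2e-07) and below the median of the arrays. Cdca8 (borealin) and Incenp, the scaffold of the complex, were 2.15-fold and 1.97-fold lower, with adjusted p = 0.00018 and 0.0002. The chosen probe sets of Cdca8 and Incenp are also of the types that may match other transcripts.

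The 6 kinesins, motors that move along microtubules, were all called lower (background 11.5%), by 0.92 to 2.91 on the log2 scale (median -1.82). Kif11, the motor that pushes the spindle poles apart, was at 77.8, 123 and 92.5 units in M0, 20.6, 18.9 and 37.4 in M1 and 109 and 77.3 in M2. It was 3.93-fold lower in M1 (-1.97 ± 0.24, adjusted p = 8.6e-05), with M1 replicate 3 above the other two M1 arrays. Kif23, a motor of the central spindle in cytokinesis, read 187, 301 and 200 units in M0, 49.6, 36.1 and 53.1 in M1 and 198 and 144 in M2, a 4.91-fold fall (-2.29 ± 0.20, adjusted p = 4.6e-06). Kif20a, another motor of the central spindle, fell most by the chosen probe sets (-2.91). Kif4, a motor that binds chromosomes, read 58.6, 71.8 and 58.6 units in M0, 16.4, 23.4 and 20.1 in M1 and 82.7 and 62.1 in M2 and was 3.17-fold lower in M1 (adjusted p = 7.5e-06). Kif22, which also binds chromosomes, differed by -1.16 and Kif2c, which takes microtubules apart, by -0.92. Another probe set of Kif2c fell further than the chosen probe set of Kif20a.

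Other proteins of the spindle, the chromosomes and cytokinesis were called lower in 8 of 9 cases (background 11.5%). Top2a, the topoisomerase that untangles sister chromatids, was at 368, 596 and 431 units in M0, 135, 111 and 153 in M1 and 588 and 393 in M2, 3.45-fold lower in M1 (-1.79 ± 0.19, adjusted p = 2.9e-05). Mki67, which coats mitotic chromosomes and is used as a marker of cycling cells, had 537, 754 and 454 units in M0, 291, 214 and 248 in M1 and 625 and 503 in M2. Its fall was 2.28-fold (-1.19 ± 0.18, adjusted p = 0.00036), less than the median of the list. Prc1, which bundles the microtubules of the midzone, read 347, 528 and 337 units in M0, 185, 113 and 131 in M1 and 378 and 297 in M2, and M1 was 2.82-fold lower (-1.50 ± 0.20, adjusted p = 0.00017). Proteins of the cleavage furrow followed the same course. The scaffold Anln, Ect2 and its partner Racgap1 differed by -2.72, -2.03 and -1.78. The spindle assembly factors Nusap1 and Tpx2 differed by -2.30 and -1.18.

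Hmmr, which encodes a receptor for hyaluronan that also binds spindle microtubules, was the member that did not pass. It read 99.3, 177 and 104 units in M0, 108, 102 and 104 in M1 and 125 and 108 in M2, so the M0 arrays overlapped both other groups, with M0 replicate 2 high, while the M1 arrays were narrowly below the M2 arrays. Its difference in M1 was -0.23 ± 0.18 (adjusted p = 0.48) and turned to 0.04 without M0 replicate 2. Of its 5 probe sets, 1 was called lower, by 0.57 on the log2 scale (adjusted p = 0.0043), in a dim range where the M0 arrays read 13.5 to 14.9 units.

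Genes of mitotic exit split in direction. Ube2c, the enzyme that begins ubiquitin chains on substrates of the anaphase promoting complex, read 646, 952 and 605 units in M0, 22.9, 26.2 and 30.7 in M1 and 657 and 474 in M2. The intensity fell 27.2-fold (-4.77 ± 0.18, adjusted p = 6.4e-09), the lowest fitted difference of the list, with all 3 M1 arrays below the array medians. How much of such a low intensity is background signal was not tested, and the fold depends on it. Cdc20, the protein that activates the complex at anaphase, was at 348, 448 and 332 units in M0, 106, 80.5 and 65.5 in M1 and 296 and 196 in M2, 4.53-fold lower in M1 (-2.18 ± 0.19, adjusted p = 5.8e-06). Espl1, separase itself, fell by 1.29 on the log2 scale (adjusted p = 8.9e-05).

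Ube2s, which extends the ubiquitin chains that Ube2c begins, moved the other way. Its intensity was 1868, 1897 and 1649 units in M0, 2415, 2431 and 3165 in M1 and 2889 and 2485 in M2. All activated arrays were above all M0 arrays, by 1.47-fold in M1 (0.56 ± 0.13, adjusted p = 0.007) and 1.49-fold in M2 (0.57 ± 0.14, adjusted p = 0.019). M1 and M2 did not pass against each other (-0.02 ± 0.14, adjusted p = 0.96). The probe set is of a type that may match other transcripts, and the other probe set of Ube2s, at 10.3 to 13.6 units over the 8 arrays, was not called in either comparison.

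Pttg1, which encodes securin, the inhibitor of separase, was the gene called in opposite directions in the activated states. It read 3343, 2793 and 3020 units in M0, 3880, 4466 and 3900 in M1 and 1796 and 1657 in M2, with no overlap between the 3 groups. Pttg1 was 1.34-fold higher in M1 (0.42 ± 0.11, adjusted p = 0.014) and 1.76-fold lower in M2 (-0.82 ± 0.12, adjusted p = 0.00068), and the test of M1 against M2 gave a difference of 1.24 ± 0.12 (adjusted p = 1e-05). Another of its probe sets made the same calls, at 705, 609 and 709 units in M0, 941, 1085 and 810 in M1 and 371 and 305 in M2, with differences of 0.48 and -0.999, while the third, at 59.9 to 74.1 units, was not called. The call in M1 was lost without M0 replicate 2 (adjusted p = 0.079) or without M1 replicate 2 (adjusted p = 0.055). The call in M2 held with each array left out in turn (adjusted p of 0.00079 to 0.012), but without either M2 array the spread came from the M0 and M1 arrays alone.

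**Figure D3:**
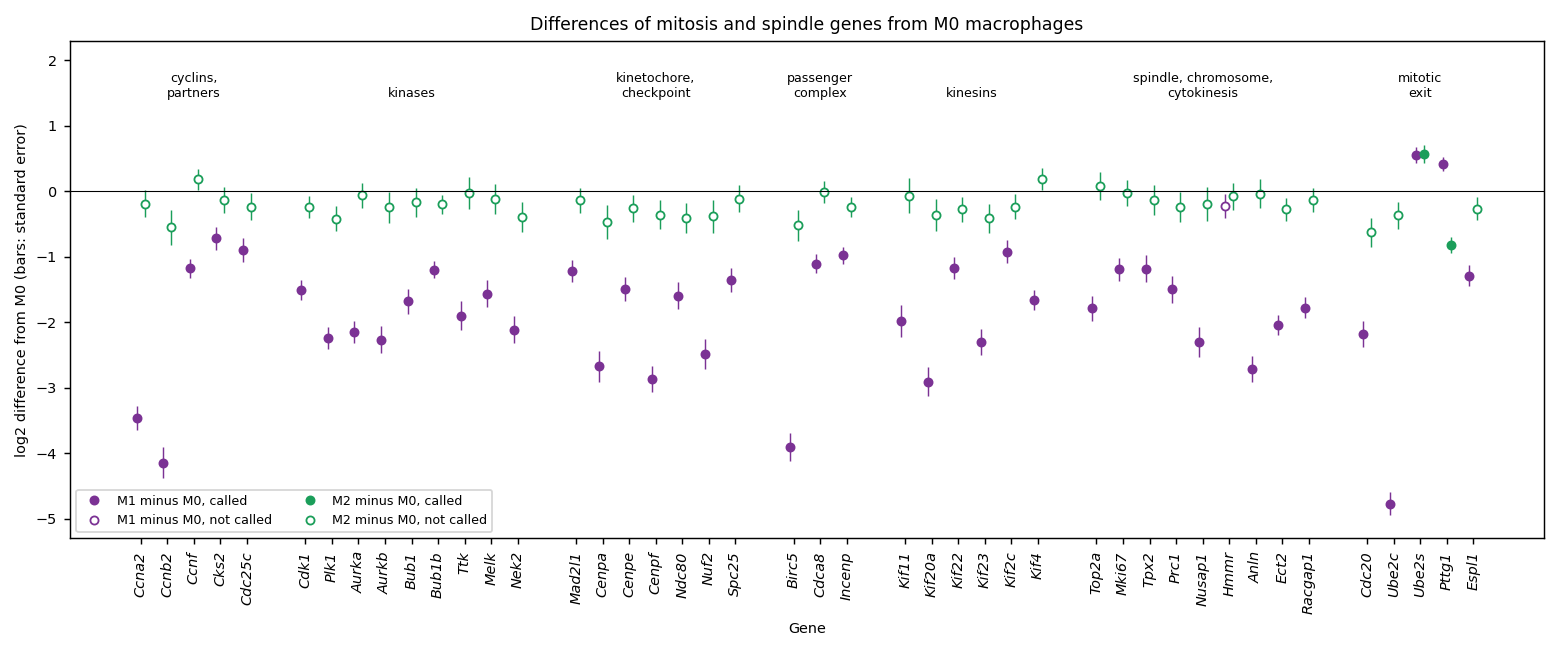
log2 difference from M0 (vertical axis, bars are standard errors) of the 44 genes by role (horizontal axis), for M1 (purple) and M2 (green), filled where called at an adjusted p under 0.05. M1 differences run from -4.77 (Ube2c) to 0.56 (Ube2s), and M2 differences from -0.82 (Pttg1) to 0.57 (Ube2s) with 42 of 44 not called.

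The list stood closer to M0 after IL-4. In M2 compared with M0 macrophages 1 of the 44 genes was called lower (Pttg1; background 6.43%), 1 was called higher (Ube2s; background 8.03%), and 42 were not called. At an unadjusted p under 0.05 there were 3 lower, Pttg1, Cdc20 and Plk1, and 1 higher, where 11.6% and 14.6% of all named genes passed. Point estimates were below 0 in 40 of the 44, against 8627 of the 18193 named genes. The median over the 44 was -0.23 against 0.01 over all named genes, and the M2 arrays were apart from each other, with medians of 0.02 and -0.44. The median was 0.02 without M2 replicate 2 and -0.03 without M0 replicate 2. Standard errors of the M2 differences ran from 0.12 to 0.27 on the log2 scale, and a gene that was not called is not shown to be equal.

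After Pttg1, the lowest M2 estimates were those of Cdc20 (-0.63 ± 0.22, adjusted p = 0.085) and Ccnb2 (-0.55 ± 0.27, adjusted p = 0.24). With the values given above, both M2 arrays of Cdc20 and of Ccnb2 were below their 3 M0 arrays, as was true of Plk1 and Pttg1 and of no other gene (4 of 44, against 19.6% of all named genes). Cdc20 and Cdc25c were called lower when M2 replicate 1 was left out, a fit in which the lone M2 array is assumed to vary like the M0 and M1 arrays. Cdc20 was also called with the replicate number as a term in the fit. The highest estimates after Ube2s were those of Kif4 (0.19 ± 0.17, adjusted p = 0.57) and Ccnf (0.19 ± 0.16, adjusted p = 0.56), whose M2 arrays overlapped the M0 arrays.

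Compared directly, 40 of the 44 genes were lower in M1 than in M2 macrophages and 36 of them by at least 2-fold (background 12.3% and 4%), 1 was higher (Pttg1; background 11.5%), and Cks2, Hmmr and Ube2s were not called. The median difference was -1.53. In 42 genes every M1 array was below both M2 arrays (23.3% of named genes). The 3 comparisons share arrays, so their counts are not independent of each other.

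The calls depended on how dim values and the spread were handled. With intensities under 64 units set to 64, 26 genes were called lower in M1 than in M0, the median difference was -1.18 and neither Ube2s nor Pttg1 was called higher. As the array medians were 38.9 to 40.4 units, most values of each array became 64, which alters the spread shared in the fit. Cks2, Ube2s and Pttg1, above 64 units in every array, lost their calls in M1 as well. With the methods' t-test, in which each probe set has its own estimate of spread, 32 genes were called lower on the log2 scale and 10 on the linear scale, and Ube2s and Pttg1 lost their calls (adjusted p of 0.0854 to 0.136).

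Probe sets that read other stretches of the same transcripts were compared next. The 44 genes had 97 probe sets, of which 70 were called lower in M1, 3 higher and 24 not, where 10.2% of all probe sets were called lower and as many higher. Of the 53 that had not been chosen, 32 made the same call as the chosen probe set of their gene. Brightness went with the calls: 54 of the 64 probe sets above the mean array median were called lower and 7 not called, against 16 and 17 of the 33 below it, whose median difference was -0.34. The chosen probe set did not give the largest fall in every gene. Cdc20, Kif2c and Racgap1 each had another that fell further (-3.36, -2.998 and -2.85). So did further genes, among them Bub1b, Kif11 and Kif22 (-1.62, -2.38 and -1.58). The mean of all probe sets of each gene gave a median difference of -1.28.

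**Figure D4:**
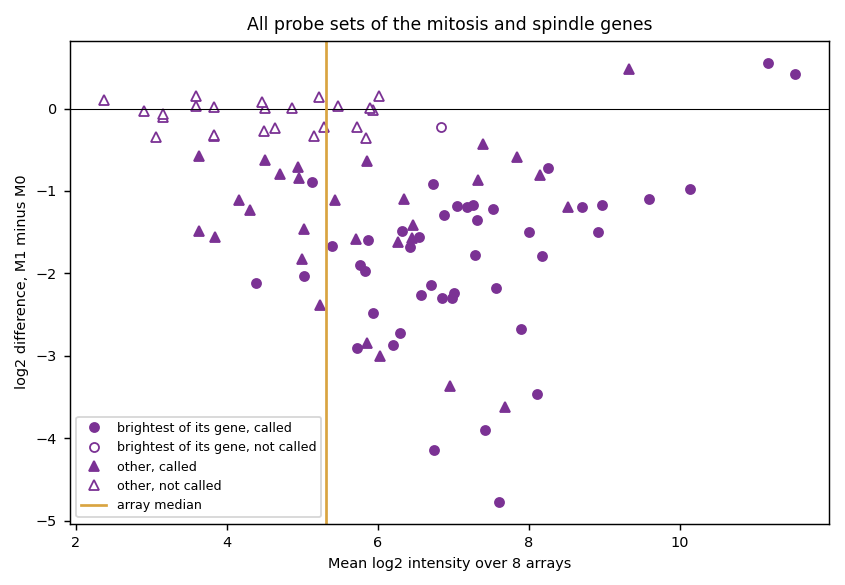
log2 difference between M1 and M0 (vertical axis) of the 97 probe sets of the 44 genes against their mean log2 intensity over the 8 arrays (horizontal axis), with circles for the brightest probe set of each gene, triangles for the others, and filled symbols for those called. Open symbols gather at the dim end, left of or near the array median, and the 3 called probe sets above 0 belong to Ube2s and Pttg1.

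Further genes of mitosis were read from 6 other lists, and genes of S phase from a seventh. Among 35 other genes of the spindle and cytokinesis, 23 were called lower in M1 (background 11.5%), 1 higher (background 13.7%) and 11 not, with a median of -0.73. The largest falls were those of Stmn1, which destabilizes microtubules (-3.69), Cdca3 (-3.20), Pbk, a mitotic kinase (-2.85), and Shcbp1 (-2.80). Stmn1 went from 2511, 3781 and 2395 units in M0 to 183, 254 and 227 in M1. Tubg1, the tubulin that nucleates microtubules at centrosomes, was the gene called higher (0.73, adjusted p = 0.0018).

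Among 31 other kinetochore and checkpoint genes, 20 were lower, 1 higher and 10 not called, against the same background shares, with a median of -0.66. Zwilch, which brings the checkpoint to kinetochores, led the falls (-2.15), followed by the centromere protein Cenpp (-1.89), by Spc24, the fourth subunit of the Ndc80 complex (-1.83), and by Cenpk (-1.82). Mad2l2, a relative of Mad2 with roles in DNA repair, was higher (0.86, adjusted p = 2.5e-05). In cohesin and condensin 10 of 20 genes were lower (background 11.5%), 2 higher (background 13.7%) and 8 not called. Subunits of condensin, which compacts mitotic chromosomes, led with Ncapg2 (-2.66), Ncapd2 (-1.82), Ncaph (-1.74) and Smc2 (-1.72). Wapl (0.56) and Esco1 (0.49), regulators of cohesin, were the 2 called higher. Ncapg2 was also lower in M2 (-1.53, adjusted p = 5.6e-06), at 587, 648 and 700 units in M0, 102, 108 and 95.6 in M1 and 244 and 203 in M2.

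Of 17 genes of the anaphase promoting complex, which Cdc20, Ube2c and Ube2s serve, and of its regulators, 6 were lower (background 11.5%), 2 higher (background 13.7%) and 9 not called, and the median difference was 0.05. Fbxo5, the inhibitor Emi1 that is itself transcribed with the cell cycle, fell most (-1.84), then Ube2d1, a ubiquitin-conjugating enzyme (-0.87), and Anapc15 (-0.65), while Anapc16 (0.68) and Anapc7 (0.39) were higher. Of 13 genes of mitotic entry and its brakes, 4 were lower, 3 higher and 6 not called, against the same background shares. Cdc25b, the phosphatase that first activates Cdk1 (-1.61), Wee1 and Pkmyt1, the kinases that hold Cdk1 inactive (-1.17 and -1.08), and Mastl, which protects mitotic phosphorylation (-0.52), fell together. Gadd45b, a stress-induced gene, went from 623, 518 and 527 units in M0 to 2269, 2262 and 2241 in M1 (2.03, adjusted p = 6.5e-08), the CDK inhibitor Cdkn1a differed by 0.47 (adjusted p = 0.03) and the phosphatase Cdc25a by 0.45 (adjusted p = 0.0042).

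Of the 16 genes that control transcription of mitotic genes, 6 were lower (background 11.5%), 1 higher (background 13.7%) and 9 not called, with a median of -0.10. The falls were led by E2f7 (-2.33) and E2f8 (-1.67), E2F proteins that repress transcription and are themselves induced in S phase, then by Mybl2, the activator that joins the CHR-binding complex (-1.02), and Rbl1, a pocket protein (-0.62). Foxm1, chosen for mention after its values were seen, is the factor that activates mitotic genes late in the cycle and read 173, 198 and 174 units in M0 and 140, 133 and 134 in M1, a difference of -0.42 (adjusted p = 0.0084). The 1 called higher was Nfyb, a subunit of the CCAAT-binding factor (0.42, adjusted p = 0.02).

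S phase genes, which copy the DNA before mitosis, also fell. In M1, 27 of 31 were lower (background 11.5%) and 4 were not called, with a median of -1.36. Pclaf, a partner of the replication clamp (-3.80), Rrm2, a subunit of ribonucleotide reductase (-3.70), and Mcm5 and Mcm7 of the replicative helicase (-3.21 and -2.68) led. Dut, which keeps uracil out of DNA, was lower in M1 (-1.81) and higher in M2 (0.90, adjusted p = 0.0037). In M2, 2 of the 163 genes of these 7 lists were called lower (background 6.43%), Ncapg2 and Numa1, a spindle pole protein (-0.46, adjusted p = 0.02), and 2 higher (background 8.03%), Dut and Gadd45a (0.50, adjusted p = 0.045).

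**Figure D5:**
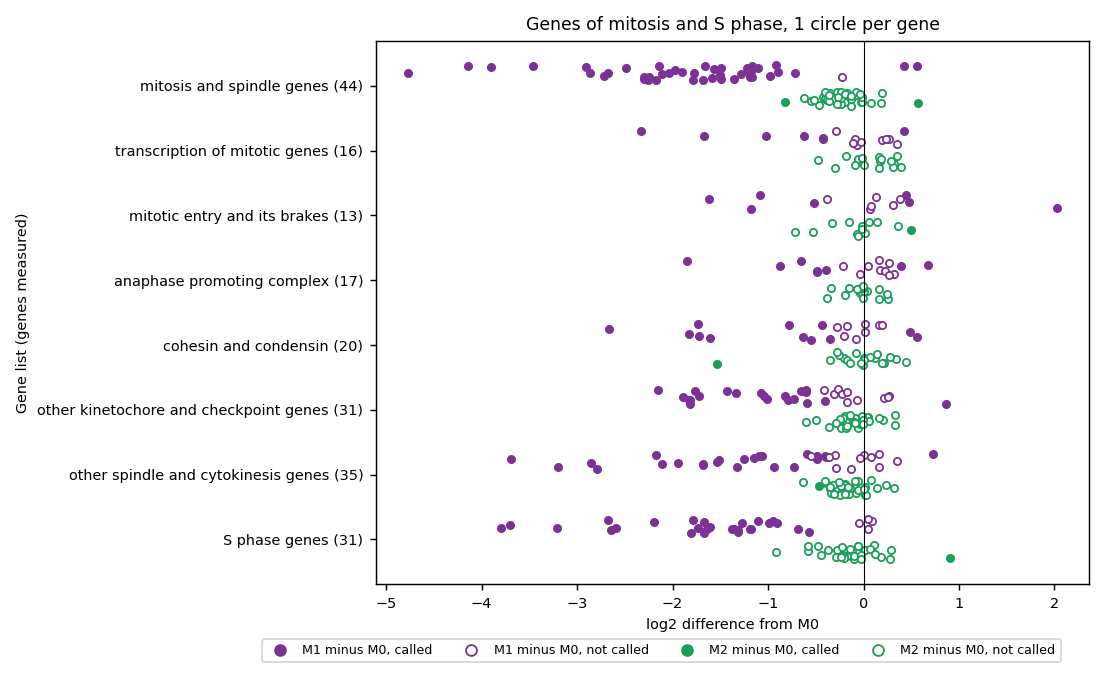
log2 difference from M0 (horizontal axis) of each measured gene, 1 circle per gene, for the 44 mitosis and spindle genes and for 7 further lists (vertical axis, number measured in brackets), in M1 (purple) and M2 (green), filled where called. The M1 circles of the mitosis, other spindle and S phase lists reach below -3, those of the anaphase promoting complex lie mostly near 0, and the M2 circles run from -1.53 (Ncapg2) to 0.90 (Dut).

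Markers of the cells in culture were examined beside these results. All 8 macrophage markers were above the array median in every array, and in M1 2 were called lower (Cd68 and Mertk; background 11.5%) and 1 higher (Cd14; background 13.7%), while 5 were called lower in M2 (background 6.43%). The 9 measured markers of haematopoietic progenitors, the dividing cells of bone marrow, summed to 267 to 278 units in M0, 265 to 286 in M1 and 273 to 290 in M2. Of the 9, 0 were called in limma in any comparison and 0 reached an unadjusted p under 0.05, and 7 were below the array median in all arrays. Over all 18193 named genes, 11.5% were called lower and 13.7% higher in M1 than in M0. The shares were 6.43% and 8.03% in M2 against M0, and 12.3% and 11.5% in M1 against M2. At an unadjusted p under 0.05, 2844 were lower and 3390 higher in M1 than in M0. In M2 against M0 11.6% and 14.6% passed, and in M1 against M2 3129 and 2972 genes. Among markers of other cells that a culture of marrow could hold, 1 of 7 of neutrophils was lower in M1 and 1 higher, 2 of 8 of fibroblasts and stroma were higher, and 1 of 4 of T cells and 1 of 5 of B cells were lower, against the same 11.5% lower and 13.7% higher over all named genes. For erythroid cells 0 of 5 were called, and 0 reached an unadjusted p under 0.05. The summed markers ran from 463 to 509 units in M0 and 402 to 427 in M1 for neutrophils, and from 257 to 286 and 307 to 467 for stroma. Those of T cells summed to 191 to 224 units in M0 and 162 to 188 in M1, those of B cells to 194 to 217 and 139 to 188, and those of erythroid cells to 201 to 226 and 193 to 216. The part of such cells in the results was not tested. RMA intensities do not reach 0, so these sums hold background signal.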

How the data were processed

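RNA of 8 cultures of mouse bone marrow-derived macrophages (3 M0, 3 M1, 2 M2) was hybridized by the authors to Affymetrix mouse arrays. The deposited table holds intensity values that the authors normalized by RMA with GenePattern (module Expression File Creator). RMA corrects background, makes the distributions of the arrays alike and summarizes the probes of a probe set, so a shift common to all genes cannot be seen. Per the values, the deposited intensity is on a linear scale, in units of brightness, and carries no detection calls. Precision is limited by the number of arrays and the spread between them.

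Here, intensities were log2 transformed, 64 control probe sets were left out and 45037 were tested with limma 3.58.1 (lmFit and eBayes) in R 4.3.3, with all 8 arrays in 1 fit and a mean per condition (5 residual and 6.95 prior degrees of freedom). P-values are two-sided and were adjusted by Benjamini and Hochberg over the 45037 probe sets. Called means an adjusted p under 0.05, and ± after a difference is its standard error. The fit was tested on simulated data. Genes were named through 34945 probe sets that carry 1 symbol in the platform annotation, with 932 left out for several symbols and 9160 not listed there. The suffixes _s_at and _x_at, which may match transcripts of other genes, were carried by 8 of the 44 chosen probe sets, those of Aurkb, Incenp, Kif22, Nek2, Cdca8, Prc1, Ube2s and Pttg1. Ccnb1 and 10 genes of the other lists were not analysed here.

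The members and the other lists were chosen with earlier results of these data known. Values in every array were given for a set of core genes, for members not called lower in M1 and for the 3 lowest and 3 highest M2 differences, and up to 4 genes with the largest M1 differences and up to 3 of opposite direction were named from each other list. Genes behind some counts of 5 or fewer, and Foxm1, were also named, chosen after their values were seen. Called cell markers other than Cd68, Mertk and Cd14 were not named. Promoters were searched by letters in RefSeq reference windows (GRCm38.p6). Alternatives were the methods' t-test, other variance models, centring, normalization, filters, thresholds and probe sets, a term for the replicate number, and each array left out. Plots were made in Python 3.11.15 (matplotlib 3.10.9).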

Additional observations from a re-analysis of the deposited data

How the results depend on the processing

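The median M1 difference of the list stayed below 0 under every alternative for which it was computed, and the count of genes called varied with the test. Of 41 genes called lower in M1 than in M0, the methods' t-test on linear values called 10 and a lower limit of 64 units called 26. With each array left out in turn 40 to 41 were called, and the median difference (-1.67) ran from -1.77 to -1.52. The median was -1.18 with the limit of 64 units and -1.28 with the mean of all probe sets of a gene. For the 2 genes higher in M1, both t-tests, the limit of 64 units and the 2-fold limit left 0, an adjusted p under 0.01 left 1 (Ube2s), leaving out _s_at and _x_at probe sets (chosen after seeing the data) left 1 (Pttg1), and leaving out an array left 1 to 2. With the 64-unit limit Pttg1 and Ube2s kept their differences and had adjusted p of 0.0543 and 0.0752. None of their values was under 64 units, so what changed was the spread estimated over all probe sets and the adjustment. The share of each was not tested.

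In M2 against M0, the 1 gene called lower (Pttg1) became 0 with both t-tests (adjusted p = 0.0908 and 0.12) and with the 2-fold limit, 2 with a further quantile normalization (with Cdc20), and 1 to 3 with an array left out. Where that array was an M2 array, the lone M2 array was assumed to vary like the M0 and M1 arrays. The 1 gene called higher (Ube2s) became 0 with both t-tests, the limit of 64 units, an adjusted p under 0.01, the 2-fold limit, the mean of all probe sets and without _s_at and _x_at probe sets, where its difference turned to -0.17, and ran from 0 to 1 with an array left out (0 without M0 replicate 3 or M2 replicate 1). With an array left out, the median M2 difference (-0.23) ran from -0.44 to 0.021 (without M2 replicate 2), the M2 difference of Ccnf from -0.0022 (without M2 replicate 1) to 0.37, that of Kif4 from -0.014 (without M2 replicate 1) to 0.40, and the M1 difference of Hmmr from -0.38 to 0.040 (without M0 replicate 2). In M1 against M2, the 40 genes lower became 8 and 1 with the t-tests on log2 and linear values, 17 with the limit of 64 units and 34 to 41 with an array left out, and the 1 higher (Pttg1) became 0 with the t-test on linear values and stayed at 1 with any array left out.

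The titles number the arrays of a group (WT1, WT2 and, in M0 and M1, WT3), and whether a number stands for a mouse across groups is not given in the sources used here. Deviations of arrays with the same number correlated at -0.172 to 0.0547, others at -0.15 to 0.19. The deviations of the 2 M2 arrays mirror each other, so a correlation with M2 replicate 1 is always the opposite of that with M2 replicate 2. Between M0 and M1 arrays alone the ranges were -0.172 to 0.0507 and -0.15 to 0.19, which did not set arrays with the same number apart. With the replicate block, 41 genes were lower and 2 higher in M1 than in M0, 2 were lower in M2 (Cdc20 with Pttg1), and 39 were lower in M1 than in M2. The arrays carry no detection calls, so how far genes in M1 lie above background cannot be given.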
